A study of Mus musculus with 9 samples.

Results

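The genes described here are the matrix metalloproteinases (MMPs), the ADAMTS proteases, the ADAMTS-like proteins and the tissue inhibitors of metalloproteinases (TIMPs). The rule goes by name and takes every gene of the table whose symbol is Mmp, Adamts or Adamtsl with a number, or Timp1 to Timp4. It was set with earlier results of these data known. The rule found 51 of 22192 genes: 23 Mmp, 19 Adamts, 5 Adamtsl and 4 Timp genes.

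MMPs and ADAMTS proteases are zinc enzymes that cut the extracellular matrix and proteins of the cell surface. Most are made as inactive precursors that other proteases switch on, and TIMPs block the active enzymes by binding their catalytic site. Secreted MMPs diffuse into the matrix, membrane-type MMPs stay on the cell, and ADAMTS-like proteins share the outer domains of ADAMTS proteases but have no protease domain. In brain, several ADAMTS proteases cut the lecticans, the large proteoglycans that fill the space around neurons.

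RNA was sequenced from brain of KM mice, an outbred stock, all labelled male. The young group was 5 months old and the aged saline group 18 months old, and both were given physiological saline. The third group, also 18 months old, was given GRP-E1F2, which is a ginseng root polysaccharide, at 200 mg/kg. All 3 groups were dosed by gavage every 2 days for 4 weeks, and no genotype or transgene is named in the labels. Each group has 3 libraries that the labels call parallel samples, and whether each came from a separate animal is not stated. The p-values then describe the spread among libraries, which may be technical. Values are TPM, a unit of transcript abundance, which scale for gene length and sum to nearly the same total in each library (999667 to 999929).

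Within every group the values of 1 library mostly fell in the middle. Taking genes with at least a 1.3-fold gap between the other two libraries of the group, young library 3 fell inside the gap for 88.8%, aged library 2 for 91.2% and GRP-E1F2 library 3 for 91.5%, against 18.7% to 30.1% for the other 6 libraries. Among the 21 members tested, the same libraries held the middle value for 17, 17 and 13. Counts of members and of partner genes called at the limit of 1 TPM are therefore also given with 2 libraries per group. That fit leaves out these 3 libraries. Partner genes are genes that the proteases act on or depend on and other inhibitors, together with ADAM proteases and the synapsins at Timp genes. Markers of brain cells were present in all libraries, and 8 retinal markers, listed because the extraction text speaks of retina, summed to 1.03 to 2.73 TPM. Transcripts of 4 Y-linked genes reached at most 0.174 TPM in any library, which goes against the label male in all 3 groups alike.

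Of the 51 members, 36 had a promoter entry in RefSeq (GRCm38.p6), and 9 are shown because 10 of the 15 members that stayed under 0.2 TPM in every library lie in 1 run in the genome. A run of 10 Mmp genes covers 427.1 kb of chromosome 9 (chr9:7272514-7699585), and all 10 protein-coding RefSeq genes there are MMPs: collagenases, stromelysins, the matrilysin Mmp7, the macrophage elastase Mmp12, the enamel protease Mmp20 and Mmp27. No gene of the run exceeded 0.161 TPM in any library. The 250 bases before the start were searched on both strands for the AP-1 motif TGAGTCA, which binds Fos and Jun proteins, for TATAAA and for the GC box GGGCGG. These motifs share no letters with each other at the sites marked here. AP-1 letters stood in 7 of the 10 and TATA letters in 7 of the 10 genes of the run, and none had a GC box. Among the other 26 members with an entry, 0 had AP-1 letters, 3 had TATA letters and 20 had a GC box. Over all 16188 genes with an entry the shares were 4.81%, 12.2% and 48.8%. A match of letters is a description and does not show that a factor binds.

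The 100 bases before the start are printed 5′ to 3′ on the strand of the gene, in lower case with these 3 motifs in capitals, for 5 genes of the run and then for 4 of the most abundant members.
Mmp13 (chr9:7272414-7272513, plus strand): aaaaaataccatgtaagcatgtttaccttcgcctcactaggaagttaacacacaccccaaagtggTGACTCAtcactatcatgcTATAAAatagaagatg
Mmp3 (chr9:7445722-7445821, plus strand): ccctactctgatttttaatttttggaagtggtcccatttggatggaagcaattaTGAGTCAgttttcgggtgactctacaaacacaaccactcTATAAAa
Mmp1a (chr9:7464041-7464140, plus strand): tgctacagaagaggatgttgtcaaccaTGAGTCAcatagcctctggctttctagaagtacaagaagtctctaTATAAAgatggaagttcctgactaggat
Mmp10 (chr9:7502242-7502341, plus strand): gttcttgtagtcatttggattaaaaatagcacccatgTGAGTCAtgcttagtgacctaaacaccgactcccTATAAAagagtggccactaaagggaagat
Mmp7 (chr9:7691990-7692089, plus strand): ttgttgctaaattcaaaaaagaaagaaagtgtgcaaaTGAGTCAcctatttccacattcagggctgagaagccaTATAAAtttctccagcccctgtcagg
Mmp24 (chr2:155775242-155775341, plus strand): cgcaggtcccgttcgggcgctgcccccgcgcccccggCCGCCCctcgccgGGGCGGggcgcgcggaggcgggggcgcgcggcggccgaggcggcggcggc
Timp2 (chr11:118355412-118355511, minus strand): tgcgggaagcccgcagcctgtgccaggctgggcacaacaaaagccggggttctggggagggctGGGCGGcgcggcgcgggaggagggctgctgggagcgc
Timp3 (chr10:86300312-86300411, plus strand): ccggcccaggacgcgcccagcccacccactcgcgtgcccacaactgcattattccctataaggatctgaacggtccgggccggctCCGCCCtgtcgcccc
Timp4 (chr6:115252206-115252305, minus strand): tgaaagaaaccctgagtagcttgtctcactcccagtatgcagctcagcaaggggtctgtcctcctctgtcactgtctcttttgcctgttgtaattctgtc
The 5 genes of the run shown all hold both motifs, and in them AP-1 letters lie upstream of TATA letters. Of those not shown, Mmp1b holds both, Mmp12 has no TATA letters and Mmp20 no AP-1 letters. Mmp8 and Mmp27 have none of the 3 motifs. The median GC content of all 10 promoters of the run was 40.4%. The other 26 members had a median of 64.8%. Of the abundant members shown, Mmp24, Timp2 and Timp3 have GC boxes in this window, while Timp4 has none of the 3 motifs there.

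TIMP transcripts outweighed those of the proteases. Summed over the family, TIMPs made 397 ± 20.4 TPM (SD, n = 3) in young, 289 ± 43.5 in aged and 288 ± 35.2 in GRP-E1F2 libraries, the MMPs 107 ± 1.99, 105 ± 2.34 and 97.5 ± 14.4 TPM, and the ADAMTS proteases 58.5 ± 6.68, 40.5 ± 2.99 and 26.8 ± 3.41 TPM. The ADAMTS sums of the 3 groups did not overlap. Of all members, 6 had a mean above 10 TPM: Timp2, Timp4, Mmp17, Timp3, Mmp24 and Adamts13. Another 15 had a mean between 1 and 10 TPM, so 21 members were tested, and the remaining 30 fell under the limit of a mean of 1 TPM over the 9 libraries. Of these 30, 6 were listed at 0 in every library: Mmp1a, Mmp1b, Mmp3, Mmp10, Mmp20 and Mmp27.

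**Figure D1:**
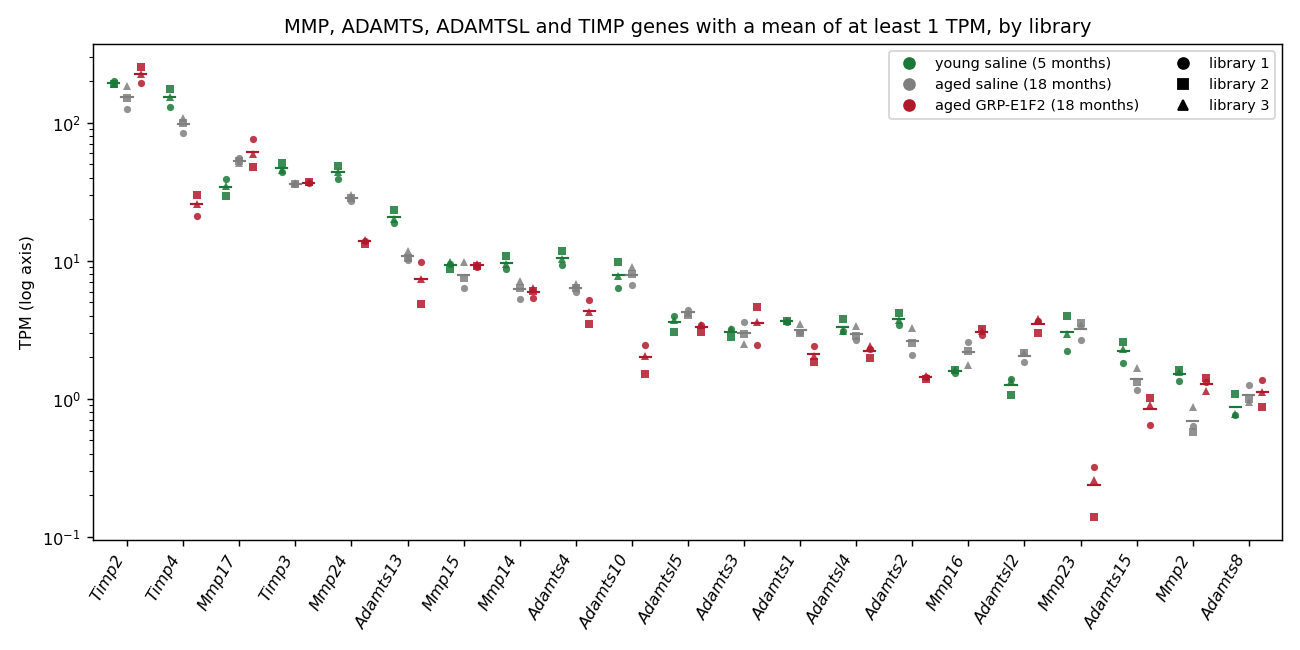
TPM on a log axis for the 21 members tested, ordered by their mean. Symbols are libraries 1 to 3, short lines are group means and colours are the 3 groups; Timp2 and Timp4 are the 2 most abundant members in the young libraries, and the GRP-E1F2 values of Timp4, Mmp24, Mmp23 and Adamts10 lie below those of both saline groups.

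Between young and aged saline mice, 10 of the 21 members tested changed: 8 fell (Timp3, Timp4, Mmp24, Mmp14, Mmp2, Adamts4, Adamts13 and Adamts15) and 2 rose (Mmp17 and Adamtsl2). Differences were tested with limma on log2(TPM + 1), with p-values adjusted over 13301 genes, and "rose" or "fell" is written where the adjusted p was under 0.05. The background was 16.7% of all genes tested, 5.48% up and 11.2% down. Young and aged libraries did not overlap for 15 of the 21, 4 higher and 11 lower, against 14.7% and 26.8% of all genes. The median log2 fold change was -0.24 over the 21 members and -0.05 over all genes. With 2 libraries per group, 0 members passed and 9 had an unadjusted p under 0.05, against 3 (0.0226%) and 1431 of all genes. Leaving out single libraries also mattered, with 1 member called without aged library 2 (Mmp24), 2 without young library 3 (Mmp24 and Timp3), 3 without young library 2 (Mmp24, Timp3 and Mmp2) and 6 without aged library 1, so only Mmp24 passed in every fit that left out 1 library.

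With GRP-E1F2 against saline in aged mice, 11 of 21 changed: 7 fell (Timp4, Mmp24, Mmp23, Adamts10, Adamts1, Adamts2 and Adamts4) and 4 rose (Timp2, Mmp2, Mmp16 and Adamtsl2). The background was 20.8%, 7.47% up and 13.4% down, and the medians were -0.28 over the members and -0.02 over all genes. The 2 aged groups did not overlap for 16 of the 21, 5 higher and 11 lower, against 14.9% and 21.5% of all genes. With 2 libraries per group, 4 members passed, Timp4 (adjusted p = 0.012), Mmp24 (0.0222), Mmp23 (0.0246) and Adamts10 (0.0378), against 1.86% of all genes. The count was 7 without aged library 2 and 7 without GRP-E1F2 library 3, where 10.1% and 10.3% of all genes passed. Timp4, Mmp24, Mmp23, Adamts10, Adamts2 and Adamtsl2 passed in every fit that left out 1 library.

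Against young saline, the GRP-E1F2 group differed at 15 of 21 members, 12 lower and 3 higher, with a background of 46.6%, 17.2% up and 29.4% down. The medians were -0.42 over the members and -0.07 over all genes. All 15 passed in each fit that left out 1 library, where 35.6% to 49.9% of all genes passed. With 2 libraries per group 8 passed, against 12.9% of all genes. This comparison shares its libraries with both of the others, so its calls add no separate evidence. Scaling by the median of ratios raised the share of rises among all called genes from 32.9% to 47.4% with age, from 35.9% to 44.7% with GRP-E1F2 against aged saline and from 37.0% to 49.5% against young saline. Quantile normalisation gave 47.1%, 48.9% and 50.8%. The members' split stayed at 4 up and 7 down and at 3 up and 12 down in the GRP-E1F2 comparisons, and with age it became 2 up and 7 down, the call of Adamts15 being lost.

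**Figure D2:**
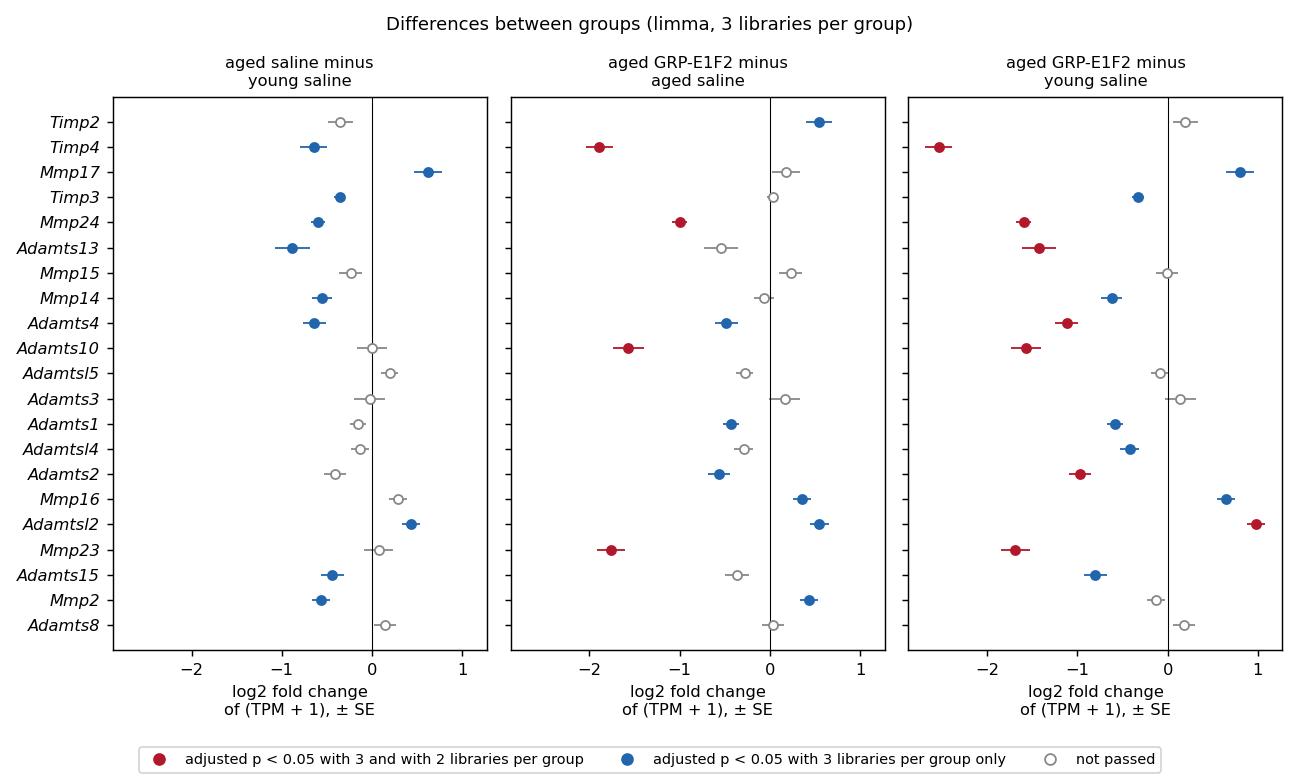
Log2 fold change of TPM + 1 (horizontal axis, ± SE) of the 21 members tested in the 3 comparisons. Filled points have an adjusted p under 0.05 and red ones also pass with 2 libraries per group: none with age, 4 with GRP-E1F2 against aged saline and 8 against young saline.

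Several cell type markers moved along with the groups. The summed level of 12 cerebellar neuron markers, led by Pcp2 and Cbln1, was 3609 to 5190 TPM in young, 2241 to 2614 TPM in aged and 204 to 209 TPM in GRP-E1F2 libraries; 11 of the 12 fell with age and all 12 fell with GRP-E1F2 against aged saline. For 10 markers of mature oligodendrocytes, led by Mbp and Mobp, the sums were 9300 to 9873, 6318 to 7599 and 5702 to 5871 TPM, with 8 falls and then 5. For 8 astrocyte markers, led by Aldoc and Slc1a3, they were 1943 to 2334, 1544 to 1726 and 976 to 1010 TPM, with 5 falls in each comparison. For 10 fibroblast markers, led by Igf2 and Dcn, they were 120 to 133, 54.2 to 77.4 and 51.9 to 60.5 TPM, with 8 falls with age, then 1 fall and 1 rise. With 2 libraries per group no marker of these 4 lists passed with age, and with GRP-E1F2 against aged saline all 12 cerebellar and 2 astrocyte markers passed, all lower, and 0 of the oligodendrocyte and fibroblast markers. Of all genes, 11.2% fell with age and 13.4% with GRP-E1F2 against aged saline in the main fit. None of the markers in these 4 lists was at 0 in all libraries. The part of these cell types in the members' differences was not tested, nor was the share of brain regions in each library. In bulk tissue fewer cells of a type cannot be told apart from less RNA per cell. Region markers, given at the end, also differed between or within groups. Hindbrain markers summed to 38.1 to 52.3 TPM in young, 1.45 to 6.18 in aged and 0.0646 to 0.436 TPM in GRP-E1F2 libraries. Pituitary markers stood at 4.34, 835 and 428 TPM in GRP-E1F2 libraries 1 to 3.

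Timp4, the TIMP with the narrowest tissue range, found in heart and brain, had the largest falls of the 3 TIMPs tested. It stood at 131, 175 and 154 TPM in the young, 84.0, 99.3 and 109 TPM in the aged and 21.1, 30.1 and 25.8 TPM in the GRP-E1F2 libraries. The 3 groups did not overlap, and every GRP-E1F2 library was below every saline library. The log2 fold change was -0.65 (SE 0.15, adjusted p = 0.0231) with age, -1.89 (SE 0.15, adjusted p = 5.54e-05) with GRP-E1F2 against aged saline and -2.54 (SE 0.15, adjusted p = 4.14e-06) against young saline. The age call was lost with 2 libraries per group (adjusted p = 0.408), and without young library 2, young library 3, aged library 1 or aged library 2. The cerebellar, astrocyte and oligodendrocyte markers that also fell are given above.

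Timp2 blocks MMPs and, together with Mmp14, also helps to activate pro-Mmp2 at the cell surface. It was the most abundant member, at 201, 192 and 193 TPM in the young, 126, 153 and 186 TPM in the aged and 195, 256 and 224 TPM in the GRP-E1F2 libraries. All aged saline libraries lay below the young ones, though aged library 3 came close to them, and all GRP-E1F2 libraries lay above the aged ones. The age difference did not pass (log2 fold change -0.35, adjusted p = 0.11), while Timp2 rose with GRP-E1F2 against aged saline (log2 fold change 0.55, SE 0.14, adjusted p = 0.0242). That call was lost with 2 libraries per group (adjusted p = 0.334), without aged library 2, GRP-E1F2 library 2 or GRP-E1F2 library 3, and in a fit of only the groups compared (adjusted p = 0.0608). Against young saline Timp2 overlapped and did not pass (log2 fold change 0.19, adjusted p = 0.279).

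Timp3 is the TIMP that binds to the matrix, and it blocks ADAMTS proteases as well as MMPs. Its values were 43.7, 50.9 and 45.6 TPM in the young, 35.8, 36.1 and 36.6 TPM in the aged and 36.7, 37.0 and 37.1 TPM in the GRP-E1F2 libraries. Both aged groups lay below the young group, and the GRP-E1F2 values, though all above the aged saline ones, were close to them. Timp3 fell with age (log2 fold change -0.36, SE 0.06, adjusted p = 0.00935) and stood at a log2 fold change of 0.03 (adjusted p = 0.766) with GRP-E1F2 against aged saline. The age call was lost without aged library 2 and with 2 libraries per group (adjusted p = 0.384). Timp1, the TIMP that injury and inflammation induce, was low at 1.92, 0.744 and 1.46 TPM in the young, 0.559, 0.521 and 0.88 TPM in the aged and 0.76, 0.511 and 0.771 TPM in the GRP-E1F2 libraries. Its groups overlapped in all comparisons and its mean was under the limit for testing.

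The make-up of TIMP transcript differed between the groups. Timp4 made up 34.7% to 41.8% of summed TIMP TPM in young, 32.7% to 34.4% in aged and 8.35% to 9.30% in GRP-E1F2 libraries. The share of Timp2 was 45.8% to 53.2%, 51.1% to 56.0% and 76.8% to 79.1%. Shares of 1 sum depend on each other and were not tested. The ratio of summed TIMP to summed MMP and ADAMTS TPM was 2.38 to 2.41 in young, 1.75 to 2.20 in aged and 1.78 to 3.03 in GRP-E1F2 libraries, so the last group overlapped both others.

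**Figure D3:**
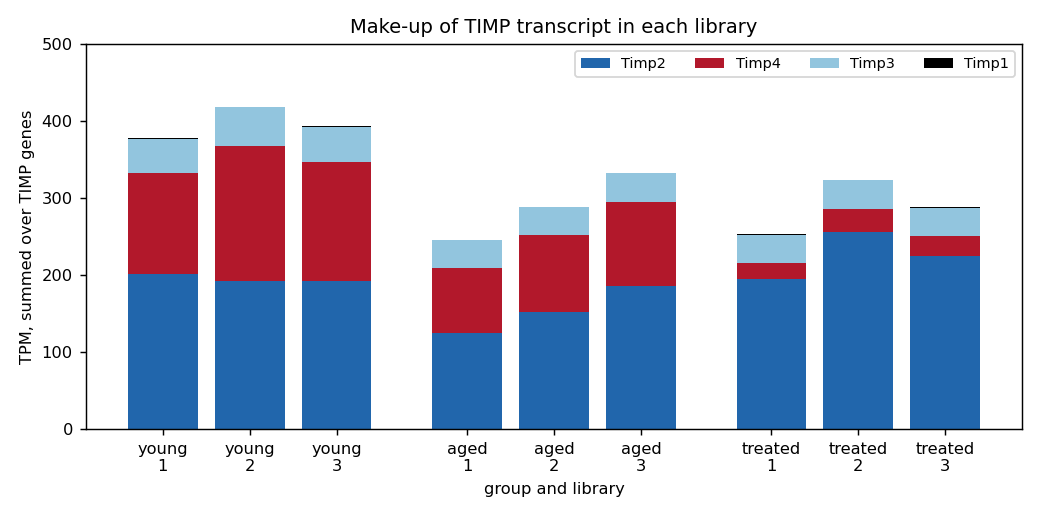
Stacked bars give the TPM of Timp2, Timp4, Timp3 and Timp1 in each of the 9 libraries, from 0. The red Timp4 segment is 131 to 175 TPM in young, 84.0 to 109 TPM in aged and 21.1 to 30.1 TPM in GRP-E1F2 libraries, while the summed height of the aged and GRP-E1F2 bars overlaps.

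Timp1, Timp3 and Timp4 each lie at a synapsin gene, an arrangement known in vertebrates: in GENCODE vM21, Timp1 lies inside an intron of Syn1, Timp3 lies inside an intron of a Syn3 transcript and shares 21.3% of its exon bases with exons of others, and Timp4 shares 90 exon bases (1.53%) with Syn2 on the other strand. The synapsins coat synaptic vesicles. None of them passed with age, and all 3 rose with GRP-E1F2 against aged saline: Syn1 (log2 fold change 0.38, adjusted p = 0.0234), Syn2 (log2 fold change 0.35, adjusted p = 0.00378) and Syn3 (log2 fold change 0.59, adjusted p = 0.0309). In that comparison 7.47% of all genes rose. Timp4 fell there while Syn2 rose, and Timp3 did not pass while Syn3 rose. With 2 libraries per group no synapsin passed. No source used here says whether reads were counted by strand.

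Among the 6 membrane-type MMPs, Mmp17 and Mmp24 carried most of the transcript and moved in opposite directions with age. Mmp24 encodes MT5-MMP, a membrane-spanning protease known mainly from neurons. It was at 39.2, 48.8 and 44.1 TPM in the young, 27.0, 28.8 and 30.2 TPM in the aged and 14.0, 13.4 and 14.1 TPM in the GRP-E1F2 libraries. The groups formed 3 separate levels, with the GRP-E1F2 libraries lowest. Mmp24 fell (log2 fold change -0.60, SE 0.08, adjusted p = 0.00488) with age and (log2 fold change -1.0, SE 0.08, adjusted p = 7.29e-05) with GRP-E1F2 against aged saline. The age call was lost with 2 libraries per group (adjusted p = 0.383). Mmp24 shares 637 exon bases (13.6%) with BC029722 on the opposite strand, a gene at 905, 1050 and 891 TPM in the young, 649, 717 and 1150 TPM in the aged and 1097, 1117 and 1086 TPM in the GRP-E1F2 libraries. In the GRP-E1F2 libraries, where Mmp24 was lowest, BC029722 was higher than in every saline library except aged library 3. If strand was not used, reads from the shared bases cannot be told apart.

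Mmp17 encodes MT4-MMP, which a lipid anchor holds in the membrane. Its values were 39.1, 29.4 and 34.7 TPM in the young, 55.5, 52.9 and 51.3 TPM in the aged and 76.6, 48.0 and 59.6 TPM in the GRP-E1F2 libraries. Every aged library of either group exceeded every young one, and the GRP-E1F2 libraries spread around the aged saline values. Mmp17 rose with age (log2 fold change 0.62, SE 0.16, adjusted p = 0.03) and stood at a log2 fold change of 0.18 (adjusted p = 0.456) with GRP-E1F2 against aged saline. The age call was lost without young library 2, young library 3, aged library 1, aged library 2 or GRP-E1F2 library 3, and with 2 libraries per group (adjusted p = 0.418). TPM scales for length, and the pair is set side by side here, though Mmp24 may hold reads of BC029722 if strand was not used. The ratio of Mmp24 to Mmp17 TPM was 1.00 to 1.66 in young, 0.487 to 0.589 in aged and 0.183 to 0.278 in GRP-E1F2 libraries. Together they made up 73.1%, 78.0% and 76.8% of summed MMP TPM, as means of the 3 groups.

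Mmp14, or MT1-MMP, cuts fibrillar collagen and activates pro-Mmp2. It stood at 8.70, 10.8 and 9.54 TPM in the young, 5.33, 6.32 and 7.17 TPM in the aged and 5.38, 6.07 and 6.31 TPM in the GRP-E1F2 libraries. Young libraries lay above all others, and the aged groups overlapped. Mmp14 fell with age (log2 fold change -0.56, SE 0.11, adjusted p = 0.0157), and with GRP-E1F2 against aged saline it stood at a log2 fold change of -0.066 (adjusted p = 0.716). Mmp16, or MT3-MMP, was at 1.55, 1.63 and 1.63 TPM in the young, 2.58, 2.22 and 1.77 TPM in the aged and 2.90, 3.18 and 3.12 TPM in the GRP-E1F2 libraries. Each group lay above the last, with aged library 3 near the young values. Mmp16 rose with GRP-E1F2 against aged saline (log2 fold change 0.36, SE 0.10, adjusted p = 0.0354), not passing with age (log2 fold change 0.29, adjusted p = 0.0812). The Mmp14 age call was lost without aged library 2, young library 2 or young library 3, and the Mmp16 call without aged library 2, aged library 3, young library 3, GRP-E1F2 library 2 or GRP-E1F2 library 3 and in a fit of only the groups compared (adjusted p = 0.078); both were lost with 2 libraries per group (adjusted p = 0.384 and 0.462).

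Mmp15, or MT2-MMP, stood at 9.44, 8.77 and 9.78 TPM in the young, 6.32, 7.51 and 9.75 TPM in the aged and 9.03, 9.22 and 9.54 TPM in the GRP-E1F2 libraries and passed in no comparison. Its lowest values were aged libraries 1 and 2, while aged library 3 matched the young ones. Without aged library 3 it passed both with age (-0.39, adjusted p = 0.0229) and with GRP-E1F2 against aged saline (0.38, adjusted p = 0.0229), while over all alternatives the adjusted p reached 0.781 and 0.754. Mmp25, a leukocyte MT-MMP, stayed between 0.036 and 0.195 TPM.

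The gelatinases Mmp2 and Mmp9 cut denatured collagen and basement membrane. Mmp2 was at 1.36, 1.62 and 1.55 TPM in the young, 0.641, 0.574 and 0.87 TPM in the aged and 1.32, 1.41 and 1.14 TPM in the GRP-E1F2 libraries. Aged saline libraries were lowest, and the young and GRP-E1F2 libraries overlapped. Mmp2 fell with age (log2 fold change -0.57, SE 0.10, adjusted p = 0.01) and rose with GRP-E1F2 against aged saline (log2 fold change 0.44, SE 0.10, adjusted p = 0.0161). The first call was lost without aged library 2 or young library 3, the second without aged library 2, and both with 2 libraries per group (adjusted p = 0.408 and 0.347). Both comparisons use the same aged saline libraries, so the fall and the rise are not separate evidence. Mmp9 stood at 1.03, 0.871 and 0.836 TPM in the young, 0.969, 0.762 and 0.663 TPM in the aged and 0.294, 0.45 and 0.367 TPM in the GRP-E1F2 libraries, under the limit for testing. Its GRP-E1F2 libraries lay below all saline libraries, and in a fit without the limit it fell with GRP-E1F2 against aged saline (log2 fold change -0.39, adjusted p = 0.0125).

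Mmp9, Mmp8 and Mmp25 are known from neutrophils, and 8 neutrophil markers, led by S100a9 and S100a8, summed to 4.01 to 8.24 TPM in young, 35.6 to 99.5 TPM in aged and 1.38 to 4.12 TPM in GRP-E1F2 libraries. Mmp8, the neutrophil collagenase, was at most 0.0317 TPM in any library, and Mmp25 was lowest in the aged saline libraries. In aged libraries 1 to 3 the neutrophil sums were 99.5, 66.2 and 35.6 TPM, beside the Mmp9 values of 0.969, 0.762 and 0.663 TPM, and Mmp9 was lowest in the GRP-E1F2 libraries, whose neutrophil sums overlapped the young ones. The young libraries held Mmp9 at 0.836 to 1.03 TPM beside neutrophil sums of 4.01 to 8.24 TPM. The part of neutrophils in the Mmp9 values was not tested.

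In Mmp23 and Adamts10 no difference was called between the saline groups, and the level with GRP-E1F2 was low. Mmp23, an unusual MMP that is held by an amino-terminal anchor until it is cut free, was at 2.22, 3.99 and 2.94 TPM in the young, 2.66, 3.54 and 3.43 TPM in the aged and 0.319, 0.139 and 0.259 TPM in the GRP-E1F2 libraries. Young and aged saline libraries overlapped, and all GRP-E1F2 libraries were far below. Mmp23 fell with GRP-E1F2 against aged saline (log2 fold change -1.76, SE 0.16, adjusted p = 0.000131), and the age difference had a log2 fold change of 0.072 (adjusted p = 0.786). Adamts10, which acts on fibrillin microfibrils, stood at 6.32, 9.76 and 7.78 TPM in the young, 6.67, 7.98 and 9.05 TPM in the aged and 2.47, 1.52 and 2.04 TPM in the GRP-E1F2 libraries. Here too the saline groups overlapped and the GRP-E1F2 libraries were lowest, with a fall (log2 fold change -1.57, SE 0.17, adjusted p = 0.00034) against aged saline and no call with age (log2 fold change 0.00071, adjusted p = 0.998). Of the 12 cerebellar markers, 11 fell with age, at a median log2 fold change of -0.77 over the list. All 12 fell with GRP-E1F2 against aged saline, at a median of -4.65. With 2 libraries per group 0 fell with age and 12 with GRP-E1F2. The part of cerebellar neurons in the Mmp23 and Adamts10 values was not tested.

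**Figure D4:**
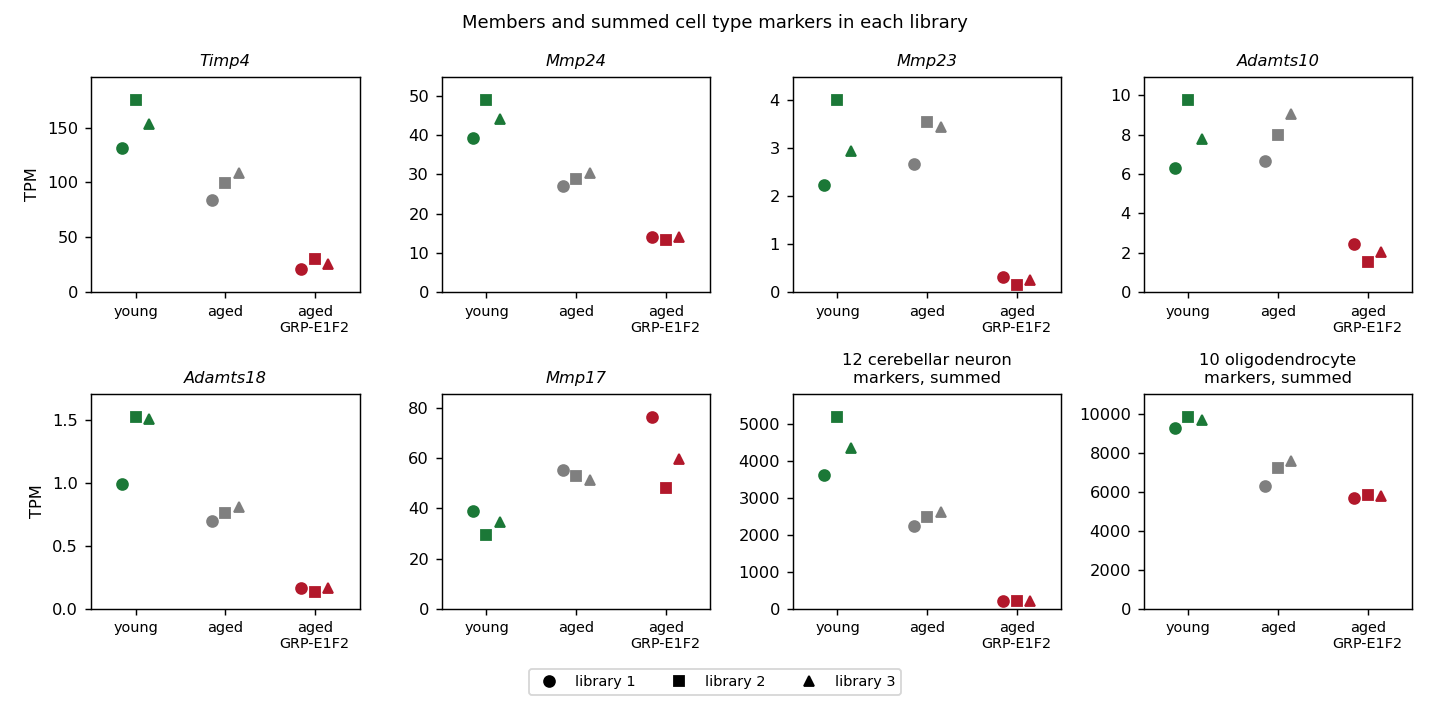
TPM of 6 members and summed TPM of 12 cerebellar neuron and 10 mature oligodendrocyte markers, each on its own axis from 0, with symbols for libraries 1 to 3. Timp4 and Mmp24 step down from young to aged to GRP-E1F2, Mmp23 and Adamts10 are low in the GRP-E1F2 libraries, at most 0.319 and 2.47 TPM, and the summed cerebellar markers are at most 209 TPM there.

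The other MMPs outside the run on chromosome 9 were low. Mmp28, or epilysin, was at 1.22, 1.62 and 1.35 TPM in the young, 0.731, 1.04 and 0.876 TPM in the aged and 0.796, 0.45 and 0.607 TPM in the GRP-E1F2 libraries, and all young libraries exceeded all others, with no call with age in the fit without the limit (log2 fold change -0.35, adjusted p = 0.0567). In that fit the GRP-E1F2 group did not pass against aged saline (log2 fold change -0.22, adjusted p = 0.174) and was lower than young saline (log2 fold change -0.57, adjusted p = 0.00315). Mmp11, which furin activates inside the cell, lay between 0.642 and 1.15 TPM with overlapping groups. Mmp19 lay between 0.13 and 0.423 TPM, and Mmp21 reached 0.0511 TPM.

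Of the ADAMTS proteases that cut lecticans, Adamts4 was the most abundant and is known from oligodendrocytes. It stood at 9.41, 11.8 and 10.4 TPM in the young, 5.92, 6.37 and 6.85 TPM in the aged and 5.24, 3.50 and 4.23 TPM in the GRP-E1F2 libraries. The 3 groups did not overlap. Adamts4 fell with age (log2 fold change -0.64, SE 0.13, adjusted p = 0.0148) and with GRP-E1F2 against aged saline (log2 fold change -0.48, SE 0.13, adjusted p = 0.0268). The age call was lost without young library 2, young library 3 or aged library 2, the GRP-E1F2 call without aged library 2, aged library 3, GRP-E1F2 library 2 or GRP-E1F2 library 3, and both with 2 libraries per group (adjusted p = 0.384 and 0.379). The oligodendrocyte, cerebellar and astrocyte marker sums above all took the same order without overlap, while the fibroblast sums of the aged groups overlapped. The part of oligodendrocytes in the Adamts4 values was not tested.

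Adamts1, which cuts aggrecan and versican, was at 3.59, 3.65 and 3.68 TPM in the young, 3.03, 2.98 and 3.52 TPM in the aged and 2.41, 1.85 and 2.03 TPM in the GRP-E1F2 libraries. The saline groups were close, and the GRP-E1F2 libraries lay below both. Adamts1 fell with GRP-E1F2 against aged saline (log2 fold change -0.43, SE 0.09, adjusted p = 0.011), a call lost without GRP-E1F2 library 3 and with 2 libraries per group (adjusted p = 0.297). Adamts15, which also cuts lecticans, was at 1.81, 2.58 and 2.31 TPM in the young, 1.16, 1.33 and 1.67 TPM in the aged and 0.646, 1.01 and 0.896 TPM in the GRP-E1F2 libraries. Its groups stepped down without overlap, and the difference with GRP-E1F2 against aged saline did not pass (log2 fold change -0.37, adjusted p = 0.0767). The age call (log2 fold change -0.44, SE 0.13, adjusted p = 0.0485) was close to the limit and was lost under median-of-ratios scaling (adjusted p = 0.0672), quantile normalisation (0.0596), a pseudocount of 0.1 TPM (0.0693), no filter (0.0522), a fit of only the groups compared (0.0578) and 2 libraries per group (0.553), and without aged library 1, aged library 2, young library 2, young library 3 or GRP-E1F2 library 3.

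Adamts5, the main aggrecan-cutting protease of cartilage, stood at 0.692, 1.09 and 1.06 TPM in the young, 0.52, 0.397 and 0.309 TPM in the aged and 0.76, 1.13 and 0.739 TPM in the GRP-E1F2 libraries. Aged saline libraries were lowest, and the GRP-E1F2 libraries overlapped the young ones. Its mean was under the limit. A fit without the limit held 45 members, of which 12 passed with age, 15 with GRP-E1F2 against aged saline and 22 against young saline, with backgrounds of 13%, 16.6% and 38.0%. In that fit Adamts5 fell with age (log2 fold change -0.47, adjusted p = 0.0346) and rose with GRP-E1F2 against aged saline (log2 fold change 0.41, adjusted p = 0.0406). Adamts8 was at 0.761 to 1.37 TPM and passed in no comparison. Adamts9 lay between 0.209 and 0.537 TPM and Adamts20 between 0.651 and 1.00 TPM, both with overlapping groups.

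Adamts2, Adamts3 and Adamts14 are the procollagen proteases, which trim the amino-terminal end of fibrillar procollagens, and Adamts3 also acts on Vegfc. Adamts2 was at 3.41, 4.21 and 3.76 TPM in the young, 2.08, 2.55 and 3.29 TPM in the aged and 1.45, 1.40 and 1.46 TPM in the GRP-E1F2 libraries. The groups did not overlap, and the GRP-E1F2 libraries were close together at the lowest level. Adamts2 fell with GRP-E1F2 against aged saline (log2 fold change -0.56, SE 0.12, adjusted p = 0.0126) and just missed the limit with age (log2 fold change -0.41, adjusted p = 0.0514). It passed with age without aged library 3 (adjusted p = 0.0162) and with a pseudocount of 5 TPM (0.0432), against up to 0.539 over the alternatives, and the GRP-E1F2 call was lost with 2 libraries per group (0.285). Adamts3 stood at 2.44 to 4.62 TPM with overlapping groups and no call, and Adamts14 reached 0.114 TPM. With GRP-E1F2 against aged saline no fibrillar collagen of the substrate list passed: Col1a1 stood at a log2 fold change of 0.34 (adjusted p = 0.206), Col1a2 at a log2 fold change of -0.065 (adjusted p = 0.736) and Col3a1 at a log2 fold change of -0.037 (adjusted p = 0.81).

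Adamts13 cuts von Willebrand factor, the protein that tethers platelets. It was the most abundant ADAMTS transcript, at 18.8, 23.3 and 20.3 TPM in the young, 10.1, 10.6 and 11.8 TPM in the aged and 9.81, 4.88 and 7.34 TPM in the GRP-E1F2 libraries. Young libraries were well above the others, and every GRP-E1F2 library lay below every aged one. Adamts13 fell with age (log2 fold change -0.88, SE 0.19, adjusted p = 0.0189), while the difference with GRP-E1F2 against aged saline did not pass (log2 fold change -0.54, adjusted p = 0.0739). That difference passed without GRP-E1F2 library 1 (-0.75, adjusted p = 0.0116, against up to 0.447 over the alternatives), and the age call was lost without young library 2, young library 3, aged library 1 or aged library 2 and with 2 libraries per group (adjusted p = 0.385). Its substrate Vwf was at 3.88, 4.22 and 4.01 TPM in the young, 2.66, 3.03 and 3.28 TPM in the aged and 2.81, 3.74 and 3.46 TPM in the GRP-E1F2 libraries, and its age difference had a log2 fold change of -0.34 (adjusted p = 0.0506).

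Adamts18 had a mean under the limit but was well separated, at 0.989, 1.53 and 1.50 TPM in the young, 0.697, 0.756 and 0.805 TPM in the aged and 0.16, 0.13 and 0.16 TPM in the GRP-E1F2 libraries. The 3 groups did not overlap. In the fit without the limit it fell with age (log2 fold change -0.41, adjusted p = 0.0258), with GRP-E1F2 against aged saline (log2 fold change -0.61, adjusted p = 0.00356) and against young saline (log2 fold change -1.02, adjusted p = 0.000111). Adamts12 was called as a rise with GRP-E1F2 in that fit (log2 fold change 0.10, adjusted p = 0.0224) at levels of at most 0.0892 TPM. Of the rest, Adamts16 lay between 0.316 and 1.41 TPM, Adamts17 between 0.525 and 0.884, Adamts6 between 0.148 and 0.477, Adamts7 between 0.0349 and 0.154 and Adamts19 between 0 and 0.451 TPM.

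Among the ADAMTS-like proteins, Adamtsl2, which binds fibrillin and the latent form of TGF-beta, rose in both comparisons. It was at 1.38, 1.07 and 1.34 TPM in the young, 1.86, 2.14 and 2.15 TPM in the aged and 3.67, 2.98 and 3.77 TPM in the GRP-E1F2 libraries. The groups stepped up without overlap. Its log2 fold change was 0.43 (SE 0.10, adjusted p = 0.0252) with age and 0.55 (SE 0.10, adjusted p = 0.00628) with GRP-E1F2 against aged saline, calls that 2 libraries per group lost (adjusted p = 0.449 and 0.257); the age call was also lost without young library 2, young library 3 or aged library 2. Adamtsl4, a fibrillin-associated protein of the lens zonule, was at 3.12, 3.80 and 3.11 TPM in the young, 2.68, 2.84 and 3.36 TPM in the aged and 2.31, 1.99 and 2.41 TPM in the GRP-E1F2 libraries, and it passed only against young saline (log2 fold change -0.42, adjusted p = 0.00861), where the GRP-E1F2 libraries lay below all young ones; that call was lost with 2 libraries per group (adjusted p = 0.107). Adamtsl5 stood at 3.03 to 4.42 TPM and passed in no comparison. Its GRP-E1F2 libraries lay below all aged saline ones, and it passed there without young library 2 (adjusted p = 0.0363, against up to 0.465 over the alternatives). Adamtsl1 lay between 0.425 and 0.829 TPM and fell with age only in the fit without the limit (log2 fold change -0.24, adjusted p = 0.0414), and Adamtsl3 lay between 0.182 and 0.403 TPM.

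Partner genes were followed in 7 lists with 52 genes, of which 40 were tested. Besides genes that these proteases act on or depend on, the lists hold ADAM proteases (5 tested) and the synapsins at Timp genes (3 tested). With age 15 passed, 1 up and 14 down, a share of 37.5% against 16.7% of all genes. With GRP-E1F2 against aged saline 14 passed, 6 up and 8 down, a share of 35.0% against 20.8%. Against young saline 28 passed, 6 up and 22 down, a share of 70.0% against 46.6%. Synapsins made up 3 of the 6 rises against aged saline and 2 of the 6 against young saline. With 2 libraries per group the counts were 0, 1 and 11, where 0.0226%, 1.86% and 12.9% of all genes passed, and the unadjusted p was under 0.05 for 9 of the 40 with age. Without aged library 2, 5 passed with age and 8 with GRP-E1F2 against aged saline, beside 2.85% and 10.1% of all genes. Without young library 3 and young library 2 the age counts were 5 and 6, beside 2.79% and 4.77%. Without GRP-E1F2 library 3 the counts with age and with GRP-E1F2 against aged saline were 10 and 8, beside 8.81% and 10.3%.

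Of the other protease inhibitors, A2m, or alpha-2-macroglobulin, which traps proteases of all classes, was at 6.67, 8.77 and 7.88 TPM in the young, 3.37, 3.40 and 3.84 TPM in the aged and 0.518, 0.301 and 0.409 TPM in the GRP-E1F2 libraries. The groups stepped down without overlap. A2m fell with age (log2 fold change -0.95, SE 0.11, adjusted p = 0.00228) and with GRP-E1F2 against aged saline (log2 fold change -1.69, SE 0.11, adjusted p = 1.5e-05), the second call being the 1 that held with 2 libraries per group (adjusted p = 0.00888). Spock2, a matrix proteoglycan, fell with age (log2 fold change -0.28, adjusted p = 0.0249). The 5 tested genes of this list showed 2 falls with age and 1 with GRP-E1F2 against aged saline, where 11.2% and 13.4% of all genes fell.

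Among the lecticans, link proteins and tenascins, 8 tested genes gave 1 rise and 3 falls with age and 2 rises and 3 falls with GRP-E1F2 against aged saline. Over all genes, 5.48% rose and 11.2% fell with age, and 7.47% rose and 13.4% fell with GRP-E1F2. Ncan, or neurocan, a substrate of Adamts4, was at 7.79 to 10.4 TPM in the young, up to 14.9 TPM in the aged and 18.6 to 25.3 TPM in the GRP-E1F2 libraries and rose in both (log2 fold change 0.48, adjusted p = 0.0403 and log2 fold change 0.69, adjusted p = 0.00756). The tenascin Tnc fell in both (log2 fold change -0.46, adjusted p = 0.0175 and log2 fold change -0.75, adjusted p = 0.00104), as did the link protein Hapln2 (log2 fold change -0.70, adjusted p = 0.0157 and log2 fold change -0.61, adjusted p = 0.017). Hapln4, a link protein, fell with GRP-E1F2 (log2 fold change -0.73, adjusted p = 0.00256). None of these calls held with 2 libraries per group.

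Fibrillar collagens led the other substrates, with 5 falls among 8 tested genes with age and 1 with GRP-E1F2 against aged saline. Col1a2 fell with age (log2 fold change -0.84, adjusted p = 0.00516), Col3a1 (log2 fold change -0.72, adjusted p = 0.00376) and Col1a1 (log2 fold change -1.16, adjusted p = 0.00731), and all 3 also stand in the fibroblast marker list. Reln, or reelin, a substrate of Adamts3, fell with GRP-E1F2 (log2 fold change -0.66, adjusted p = 0.00426). Of the convertases and the plasmin system, 3 of 8 fell with age, and 2 fell and 1 rose with GRP-E1F2: Pcsk6, a convertase of the furin kind, fell in both (log2 fold change -0.66, adjusted p = 0.0134 and log2 fold change -0.97, adjusted p = 0.00104), as did Plat, the tissue plasminogen activator (log2 fold change -0.46, adjusted p = 0.00474 and log2 fold change -0.36, adjusted p = 0.005), and Serpini1, which blocks it, rose with GRP-E1F2 (log2 fold change 0.48, adjusted p = 0.0207). Among the ADAM proteases, 1 of 5 fell in each comparison, Adam15 with age (log2 fold change -0.27, adjusted p = 0.0386) and Adam17 with GRP-E1F2 (log2 fold change -0.32, adjusted p = 0.0341). The 3 tested genes for uptake, induction and thrombospondins gave no call in either. Over all genes, 11.2% fell and 5.48% rose with age, and 13.4% fell and 7.47% rose with GRP-E1F2 against aged saline. In lists this short, 1 fall among 5 or 8 genes is near these shares.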

How the data were processed

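The table comes from RNA sequencing of mouse brain, with 9 libraries in 3 groups. Libraries were prepared from fragmented mRNA by random priming (NEBNext Ultra II kit), per the labels' protocols. HISAT2, Picard, SAMtools 0.1.18, GATK and the build mm10 are named in the submitters' processing notes. The authors deposited TPM values, 1 per gene and library. Not given in the sources used here are the software and annotation behind the TPM and the treatment of strand and of multiply mapping reads. The depth is unknown because TPM does not keep it, so no counting error is given, and 0 says only that a gene is listed at 0.

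From these values log2(TPM + 1) was taken. The filter was a 9-library mean of 1 TPM or more, which left 13301 genes, tested two-sided in 1 fit with trended eBayes after lmFit and contrasts.fit (limma 3.58.1, R 4.3.3). Benjamini-Hochberg adjustment covered every gene tested. A fold change on this scale understates the change of low genes. The same fit was also run on simulated data with independent libraries. In the real groups 1 library mostly fell in the middle, so no conclusion is drawn from that run.

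The members and gene lists were chosen with earlier results of these data known. Values in every library are given for the Timp genes, for each member called in any comparison and for the 10 members with the highest mean. Partner genes named are up to 3 per list and comparison with the smallest p among those called, and the synapsins. Mmp9, Mmp28, Adamts5, Adamts18, Vwf, BC029722, the Y-linked genes and the collagen values with GRP-E1F2 fall outside this rule; they were chosen once their values had been seen. Of 16 marker lists, those not in the report are given at the end, except 1 that is not reported here.

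Alternatives were pseudocounts of 0.1 and 5 TPM, no filter, a filter at 5 TPM, scaling by the median of ratios, quantile normalisation, a replicate block, robust eBayes, fits holding just the compared groups, each library left out, and 2 libraries per group. Promoters came from RefSeq (GRCm38.p6) and overlaps from GENCODE vM21 (GRCm38, also called mm10). Python 3.11.15, numpy 2.4.6, pandas 2.3.3 and matplotlib 3.10.9 were used for the rest.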

Additional observations from a re-analysis of the deposited data

How the results depend on the processing

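With 2 libraries per group, 0, 4 and 8 members passed (age, GRP-E1F2 against aged saline, GRP-E1F2 against young saline), 0, 1 and 11 partner genes, and 3, 248 and 1713 of all genes. At a mean of at least 5 TPM 10 members were tested, of which 7, 5 and 8 passed, against 18.0%, 21.4% and 48.6% of 9933 genes. Of 23 partner genes tested there, 17 passed against young saline. Fewer genes were tested at that limit. Leaving out 1 library gave 1 to 14, 7 to 12 and 15 to 15 members, 5 to 19, 8 to 16 and 24 to 30 partner genes, and 371 to 2635, 1345 to 3060 and 4737 to 6635 of all genes. All-gene age counts were lowest without young library 3 (371), aged library 2 (379), young library 2 (635), GRP-E1F2 library 3 (1172) and aged library 1 (1330), and those with GRP-E1F2 against aged saline without aged library 2 (1345) and GRP-E1F2 library 3 (1376).

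Same-numbered libraries correlated at -0.05 to 0.13 in their deviations from group means, and a library correlated best with its own number in 4 of 18 cases, so the numbers were not taken to pair libraries. With the replicate number as a block 10, 10 and 15 members passed, as did 14, 13 and 26 partner genes and 2055, 2589 and 5944 of all genes. Mmp16 (adjusted p = 0.0599) and Adamts4 (0.0524) then lost their call with GRP-E1F2 against aged saline, and Adamts15 (0.0422) gained one.

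Signs turned only for uncalled differences near 0. Adamts10 with age was -0.015 with 2 libraries per group, -0.0014 at a pseudocount of 5 TPM and -0.14 to 0.14 without single libraries. Mmp14 with GRP-E1F2 against aged saline was 0.016 after quantile normalisation and -0.16 to 0.022 without single libraries. Mmp15 against young saline was 0.0039 with 2 libraries per group, 0.064 after median-of-ratios scaling, 0.11 after quantile normalisation and -0.047 to 0.023 without single libraries. Mmp23 with age was -0.081 to 0.23 without single libraries. The cause of these changes was not tested. The depth behind each TPM is unknown, so no limit from counting can be given for members near 0.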

Other observations

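Some other cell type markers also differed between the groups, and their part in the members' differences was not tested. No striatal or pituitary marker passed with age or with GRP-E1F2 against aged saline. With GRP-E1F2 against aged saline no endothelial or neocortical marker passed either. Endothelial markers, led by Ly6c1 and Cldn5, summed to 240 to 256 TPM in young, 204 to 217 in aged and 175 to 208 TPM in GRP-E1F2 libraries. Mural cell markers, led by Vtn and Rgs5, summed to 134 to 141, 118 to 119 and 107 to 111 TPM. Choroid plexus markers, led by Ttr and Clic6, varied within groups, at 2243 to 2302, 164 to 1252 and 22.2 to 962 TPM. Striatal markers stood at 417 to 1322, 1361 to 1844 and 1039 to 3005 TPM, neocortical ones at 406 to 515, 634 to 705 and 558 to 1011 TPM, and olfactory ones at 17.4 to 19.7, 57.2 to 105 and 28.3 to 144 TPM. Pituitary markers stood at 5.63 to 6.12 TPM in young and 21.7 to 25.2 TPM in aged libraries, and at 4.34, 835 and 428 TPM in GRP-E1F2 libraries 1 to 3. Hindbrain markers stood at 38.1 to 52.3, 1.45 to 6.18 and 0.0646 to 0.436 TPM. Oligodendrocyte precursor markers gave 0 calls with age and 1 rise with GRP-E1F2 against aged saline, which was lost with 2 libraries per group.

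Of the 14 tested members with a promoter entry, 11 had a GC box and 0 had AP-1 letters. Of 14 members under 0.2 TPM in every library, 2 and 7 had them. These 14 low members include the 10 neighbouring genes of the run on chromosome 9, which hold all 7 AP-1 cases. The counts are therefore not separate from those given for the run. Promoter letters were matched only within the 250 bases before the annotated start.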
